A study of Mus musculus with 13 samples.

Results

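The GDNF family receptors, their coreceptors and 2 of their ligands were read in common lymphoid progenitors (CLP), which sit in bone marrow and give rise to lymphocytes. The members were Gfra1, Gfra2, Gfra3, Gfra4, Ret, Ncam1, Nrtn and Gdnf, 8 of the 24072 RefSeq identifiers in the count files, each found by the gene symbol that the RefSeq gene table gives its identifier. RNA sequencing of total RNA gave 3 Ly6D+Gfra2+ libraries, 4 Ly6D+Gfra2- libraries and 6 Ly6D-Gfra2- libraries, all from cells flow-sorted from bone marrow of wild-type C57BL/6 mice with no treatment named. The labels give no age, and they do not say whether replicates came from separate animals, so every p-value here is set against the spread between libraries only, which may be technical. Library names carry a prefix, T or P, whose meaning is not stated. Prefix T marks all 3 Ly6D+Gfra2+ libraries, replicates 5 and 6 of Ly6D+Gfra2- and replicates 4, 5 and 6 of Ly6D-Gfra2-; the rest have prefix P.

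GDNF family ligands are secreted growth factors that bind a GFR-alpha receptor, which is held to the outer membrane by a GPI anchor and has no signalling domain of its own. The bound complex recruits the receptor tyrosine kinase Ret, or the adhesion protein Ncam1, which carry the signal into the cell. Each GFR-alpha receptor prefers 1 ligand: Gfra1 binds Gdnf, Gfra2 binds neurturin (Nrtn), Gfra3 binds artemin (Artn) and Gfra4 binds persephin (Pspn). The family is best known in neurons, in kidney development and in spermatogonial stem cells. Here Gfra2 protein was one of the surface markers of the sort, so the level of its RNA checks the sort, and the comparison asks whether its partners were expressed beside it.

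Total counts lay between 9287598 and 9771228 in the Ly6D+Gfra2+ libraries, between 9200722 and 20098978 in the Ly6D+Gfra2- libraries and between 6892728 and 23705975 in the Ly6D-Gfra2- libraries. The number of identifiers with a count was 10837 to 12369 in Ly6D+Gfra2+, 11636 to 13364 in Ly6D+Gfra2- and 12904 to 13969 in Ly6D-Gfra2-. The progenitor markers Il7r, Flt3, Kit, Ly6a, Dntt and Rag1 had counts in every group. Ly6d, the other sort marker, was at 170.9, 283.0 and 205.2 CPM (counts rescaled to a TMM-adjusted library of 1000000 counts) in Ly6D+Gfra2+ and at 157.7 to 506.5 CPM in Ly6D+Gfra2-. In Ly6D-Gfra2- it was at 0.622 to 8.29 CPM in replicates 1, 2, 4, 5 and 6, while 213.0 CPM were found under the label Ly6D-Gfra2- replicate 3. That library stands with the Ly6D+ libraries in Ly6d, so values without it are given for the tested members and for the pathway genes described in detail. No call of a pathway gene against Ly6D-Gfra2- changed without it.

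Gfra2 (NM_008115, chr14:70890107-70979840), the neurturin receptor, was abundant in the Ly6D+Gfra2+ cells and nearly absent from both other compartments. It had 286.4, 514.4 and 364.4 CPM in Ly6D+Gfra2+ replicates 4, 5 and 6. In Ly6D+Gfra2- replicates 1, 2, 5 and 6 it had 0.195, 14.7, 0.28 and 4.56 CPM. In Ly6D-Gfra2- replicates 1 to 6 it had 0.497, 0.756, 5.49, 0.119, 0 and 3.5 CPM. The lowest Ly6D+Gfra2+ library was above the highest library of either other group. Ly6D+Gfra2- replicate 2 was the highest library outside Ly6D+Gfra2+, and the library labelled Ly6D-Gfra2- replicate 3 was the next. Group means were 388.4 ± 115.9 CPM in Ly6D+Gfra2+ (SD, n = 3), 4.92 ± 6.8 CPM in Ly6D+Gfra2- (SD, n = 4) and 1.73 ± 2.25 CPM in Ly6D-Gfra2- (SD, n = 6). Gm34588, a non-coding gene whose span covers 355 bases of Gfra2 exons, was not analysed here. Its own exons were not compared with those of Gfra2, so whether reads can belong to either gene was not tested. In these bulk samples fewer cells with the transcript and less transcript per cell cannot be told apart.

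**Figure D1:**
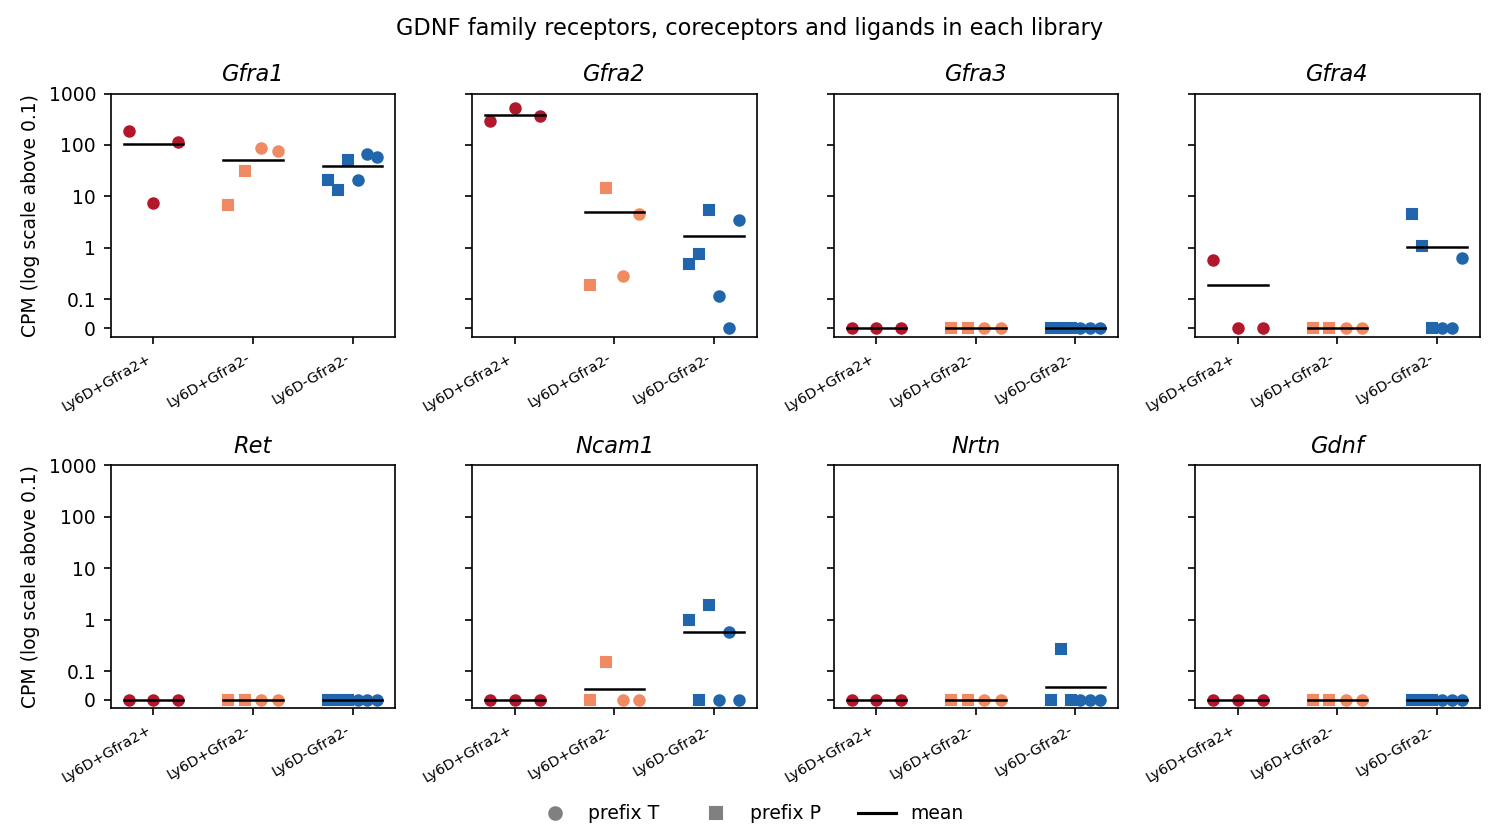
Level of each of the 8 genes in each library, in CPM on a scale that is logarithmic above 0.1 and linear below, with groups along the horizontal axis. Circles are libraries of prefix T, squares are those of prefix P, and lines are group means. Gfra2 lies between 286.4 and 514.4 CPM in Ly6D+Gfra2+ and at or below 14.7 CPM elsewhere, Gfra1 has a count in every library, and Ret, Gdnf and Gfra3 lie at 0 throughout.

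Gfra2 RNA rose in Ly6D+Gfra2+ cells against both other compartments. All 12722 genes that passed the filter on low counts were fitted together with edgeR's quasi-likelihood test, and a gene was called at a Benjamini-Hochberg adjusted p under 0.05. Against Ly6D+Gfra2-, the log2 fold change of Gfra2 was 7.14 (SE 1.42) with an adjusted p of 0.0428, where 0.204% of all genes were called higher and 4% lay above without overlap. Against Ly6D-Gfra2-, it was 8.57 (SE 1.32) with an adjusted p of 0.00388, where 0.928% of all genes were called higher and 4.03% lay above without overlap. Since the cells were sorted on this protein, both values describe the sort. Without the library labelled Ly6D-Gfra2- replicate 3, Gfra2 had a log2 fold change of 8.90 and an adjusted p of 0.00272 against Ly6D-Gfra2-.

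The call of Gfra2 against Ly6D+Gfra2- lay near the threshold, and its direction was the same in every fit. It was lost with only the 2 groups in the fit (log2 fold change 7.33, adjusted p = 0.318) and within prefix T (7.32, adjusted p = 0.139). It was also lost without any 1 of Ly6D+Gfra2+ replicate 5, replicates 5 and 6 of Ly6D+Gfra2- and replicates 1, 2, 3, 4 and 5 of Ly6D-Gfra2-. Over all 13 fits that left out 1 library, the fold change of Gfra2 lay between 6.54 and 7.95 and the edgeR adjusted p between 0.0278 and 0.128. With the library labelled Ly6D-Gfra2- replicate 3 left out, it was 6.65 with an adjusted p of 0.0759. The call against Ly6D-Gfra2- held in each of those fits, with adjusted p between 0.00194 and 0.0195, and within prefix T, with a log2 fold change of 8.41 and an adjusted p of 0.0171.

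Between the compartments without Gfra2 protein, the RNA did not pass the test. The log2 fold change of Gfra2 in Ly6D+Gfra2- against Ly6D-Gfra2- was 1.43 (SE 0.98), with a 95% interval from -0.63 to 3.49 and an adjusted p of 0.999 in edgeR. The level of 14.7 CPM in Ly6D+Gfra2- replicate 2 carried this difference, since the fold change without that library was -0.09. It was 2.26 when the library labelled Ly6D-Gfra2- replicate 3 was left out. In this comparison 0 of the 12722 genes were called (0%) by edgeR, 599 (4.71%) had an unadjusted p under 0.05, DESeq2 called 54 of 14888 with an adjusted p (0.363%) and limma voom called 1. Without the library labelled Ly6D-Gfra2- replicate 3, edgeR called 16 genes, all higher, and Ly6d, the sort marker, had a log2 fold change of 5.91 and an adjusted p of 6.29e-05.

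Gfra1, the preferred receptor of Gdnf, was the other member with counts throughout. It is listed as NR_104342, a non-coding transcript record that the RefSeq table assigns to Gfra1 (chr19:58235581-58455946, minus strand), and it had a count in all 13 libraries. Of all 24072 identifiers, 39.5% had a count in all 13. It had 189.9, 7.41 and 114.3 CPM in Ly6D+Gfra2+ replicates 4, 5 and 6. In Ly6D+Gfra2- replicates 1, 2, 5 and 6 it had 6.75, 31.2, 87.4 and 76 CPM. In Ly6D-Gfra2- replicates 1 to 6 it had 21.3, 13.2, 51.4, 21.3, 67.8 and 59.2 CPM. The groups overlapped in every comparison, and the highest and the second lowest of the 13 values were both in Ly6D+Gfra2+.

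Gfra1 and Gfra2 are paralogs, and how reads that match both were counted is not stated. No comparison called Gfra1, which had counts in cells with and without Gfra2 protein. Means were 103.9 ± 91.7 CPM in Ly6D+Gfra2+ (SD, n = 3), 50.3 ± 37.9 CPM in Ly6D+Gfra2- (SD, n = 4) and 39 ± 23.2 CPM in Ly6D-Gfra2- (SD, n = 6). The log2 fold change in Ly6D+Gfra2+ was 0.69 against Ly6D+Gfra2- (95% interval -1.04 to 2.42, edgeR adjusted p = 0.777). Against Ly6D-Gfra2- it was 0.79 (interval -0.95 to 2.52, adjusted p = 0.725), or 0.96 without the library labelled replicate 3. For Ly6D+Gfra2- against Ly6D-Gfra2- it was 0.10 (interval -1.34 to 1.53, adjusted p = 0.999), or 0.46 without that library. Without Ly6D+Gfra2+ replicate 5, Gfra1 had log2 fold changes of 1.24 against Ly6D+Gfra2- and 1.34 against Ly6D-Gfra2-, and without replicate 4 of -0.08 and 0.01. The 95% intervals from all libraries include changes of more than 2-fold in either direction, except that the decreases for Ly6D+Gfra2+ against Ly6D-Gfra2- end just under 2-fold.

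Levels of Gfra1 were higher on average in libraries of prefix T, by a difference that did not pass the test. Among Ly6D+Gfra2- libraries it averaged 81.7 CPM in the 2 of prefix T and 19 CPM in the 2 of prefix P. Among Ly6D-Gfra2- libraries it averaged 49.4 CPM in the 3 of prefix T and 28.6 CPM in the 3 of prefix P. The prefix term of the fit gave Gfra1 a log2 difference, T minus P, of 1.31 (SE 0.68, edgeR adjusted p = 0.699), a term for which 25 of the 12722 genes (0.197%) were called. The fold change of Gfra1 in Ly6D+Gfra2- against Ly6D-Gfra2- was 0.73 within prefix T and -0.59 within prefix P, and the interaction of group and prefix had an adjusted p of 0.802. The part of the prefix in the level of Gfra1 was not tested further, and all Ly6D+Gfra2+ libraries have prefix T.

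Per length of exon, Gfra2 led in Ly6D+Gfra2+ cells and Gfra1 led elsewhere. Gfra2 averaged 109.7 ± 32.8 CPM per kb in Ly6D+Gfra2+ (SD, n = 3), above 99.1% of the 23310 genes with a length, and 1.39 ± 1.92 in Ly6D+Gfra2- and 0.488 ± 0.636 in Ly6D-Gfra2-. Gfra1 averaged 19 ± 16.7 CPM per kb in Ly6D+Gfra2+, 9.19 ± 6.91 in Ly6D+Gfra2- and 7.13 ± 4.23 in Ly6D-Gfra2-. For scale, Kit, the receptor of stem cell factor, averaged 19.2 CPM per kb and Il7r, the interleukin 7 receptor that CLP depend on, 198.4 CPM per kb in Ly6D+Gfra2+. Gfra1 exceeded Gfra2 per kb in all 10 libraries of Gfra2- cells, and Gfra2 exceeded Gfra1 in all 3 of Ly6D+Gfra2+ cells. Lengths are merged GENCODE exons, and the exons behind each deposited count are not stated. Across the 13 libraries the log2 levels of the 2 receptors had a Pearson correlation of 0.24 and a Spearman correlation of 0.21, given as a description of libraries that share groups and prefixes.

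**Figure D2:**
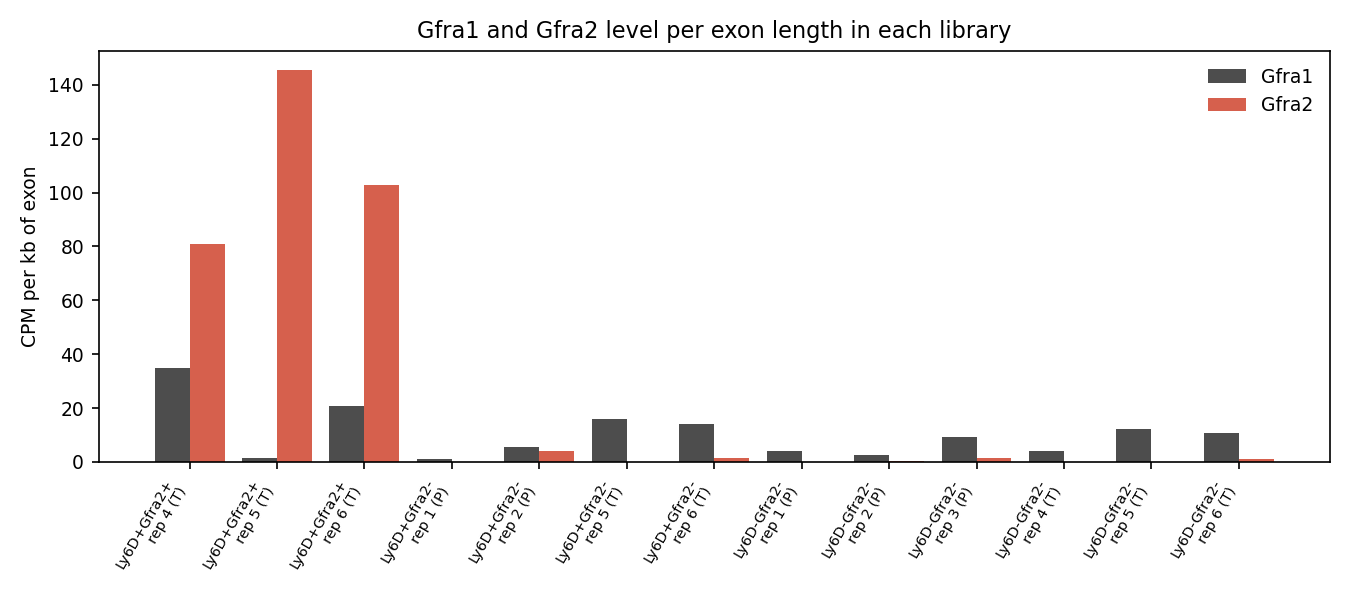
Level of Gfra1 (grey) and Gfra2 (red) in each library in CPM per kb of exon, with groups in order and the prefix of each library in brackets. Gfra2 is the taller bar in the 3 Ly6D+Gfra2+ libraries, from 80.9 to 145.4, and Gfra1 is the taller bar in the other 10.

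The span of a non-coding gene, Gm10007 (NR_040449, chr19:58296204-58300348), lies within Gfra1 and covers 107 bases of Gfra1 coding exon 6. These bases are chr19:58300242-58300348 on the minus strand of GRCm38 (also called mm10). They are shown 5′ to 3′ from GENCODE M21 transcripts because the span of Gm10007 covers them. The exons of Gm10007 were not compared with those of Gfra1, and the strand setting of the counting is not stated. Whether a read there can belong to either gene was therefore not tested. No base is marked here.
Gfra1 exon 6 within Gm10007: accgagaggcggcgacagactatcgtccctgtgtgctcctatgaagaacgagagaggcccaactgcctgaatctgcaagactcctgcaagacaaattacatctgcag
Gm10007 had 108, 73 and 32 counts in Ly6D+Gfra2+ replicates 4, 5 and 6, beside 1660, 62 and 1056 counts of Gfra1. In 12 libraries the count of Gm10007 was 1.33% to 7.97% of that of Gfra1, and in Ly6D+Gfra2+ replicate 5 it was 117.7%. That replicate therefore had few counts of Gfra1 but not of the gene within it. The log2 levels of Gfra1 and Gm10007 had a Pearson correlation of 0.52 and a Spearman correlation of 0.58 over the 13 libraries, which share groups and prefixes.

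**Figure D3:**
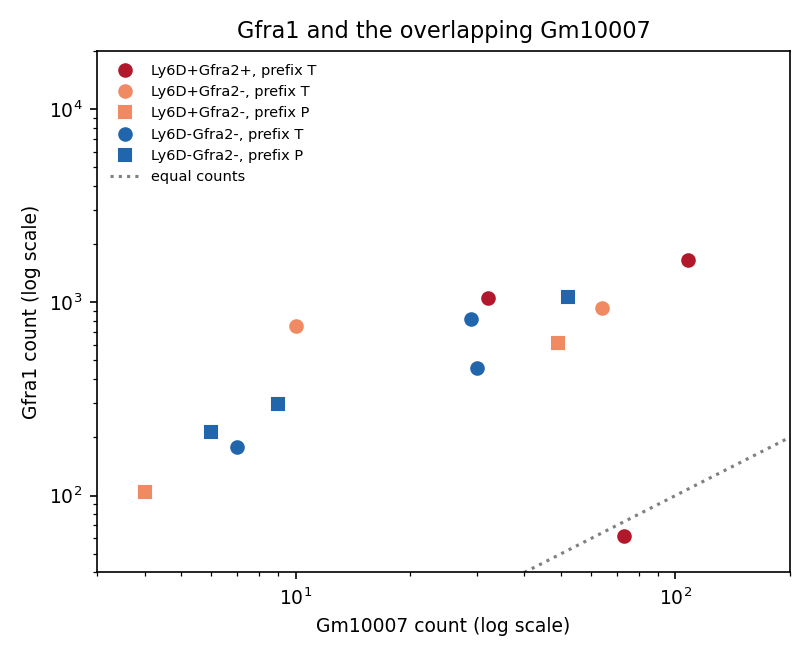
Counts of Gfra1 against counts of Gm10007 in each library, both on log scales. Colours are groups, circles are prefix T, squares are prefix P, and the dotted line marks equal counts. Ly6D+Gfra2+ replicate 5, with 62 counts of Gfra1 and 73 of Gm10007, is the point below the line.

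The remaining receptors were at or near 0. Gfra3, the artemin receptor (NM_010280, chromosome 18), had no count in any of the 13 libraries. Gfra4, the persephin receptor (NM_020014, chromosome 2), had 5 counts in Ly6D+Gfra2+ replicate 4, none in Ly6D+Gfra2-, and 45, 24 and 5 counts in Ly6D-Gfra2- replicates 1, 2 and 6. Most of its counts therefore came from Ly6D-Gfra2- replicate 1, at 4.47 CPM, and 9 of 13 libraries had none. Summed over libraries, Gfra4 was at 0.176 CPM in Ly6D+Gfra2+ (95% Poisson interval 0.057 to 0.41) and 0.932 CPM in Ly6D-Gfra2- (0.732 to 1.17). The sum in Ly6D+Gfra2- was 0, which allows up to 0.0522 CPM. Such intervals and limits cover counting error only, since amplified reads are not separate molecules. Gfra4 failed the filter on low counts, and in the fit without a filter its adjusted p in edgeR was 0.412 in Ly6D+Gfra2+ against Ly6D+Gfra2-, 1 against Ly6D-Gfra2-, and 0.865 between the Gfra2- compartments.

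Neither coreceptor was expressed at an appreciable level in the Gfra2+ cells. Ret (NM_001080780, chromosome 6) had 0 counts in all 13 libraries, among 165288154 counts in all. This allows up to 0.105 CPM in Ly6D+Gfra2+, 0.0522 CPM in Ly6D+Gfra2- cells and 0.0378 CPM in Ly6D-Gfra2- cells, from 3 counts over each group. For comparison, 32.9% of all identifiers had no count in any library. Ncam1 (NM_001081445, chromosome 9), which binds GFR-alpha receptors in the absence of Ret, had 0 counts in the 3 Ly6D+Gfra2+ libraries, which allows up to 0.105 CPM. It had 3 counts in Ly6D+Gfra2- replicate 2 and 10, 40 and 7 counts in Ly6D-Gfra2- replicates 1, 3 and 5. The highest of these, at 1.94 CPM, was replicate 3, the library whose Ly6d level goes against its label.

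Ncam1 was too low for the filtered fit, and its limit in Ly6D+Gfra2+ lies above the 0.0522 CPM summed over Ly6D+Gfra2-, so those groups cannot be ranked at this depth. In the fit without a filter, its adjusted p in edgeR was 0.942 in Ly6D+Gfra2+ against Ly6D+Gfra2-, 0.555 against Ly6D-Gfra2-, and 0.94 between the Gfra2- compartments. Gm11149, a non-coding gene whose span covers 2594 bases of Ncam1 exons, had 0 counts in all 13 libraries. Per kb, Gfra2 in Ly6D+Gfra2+ cells was at 109.7 CPM, while Ret and Ncam1 were at 0. The RNA level of a coreceptor says nothing of protein taken up or kept from an earlier stage, which was not measured.

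The ligands were also at or near 0 in the progenitors. Gdnf (NM_010275, chromosome 15) had 0 counts in all 13 libraries, which allows up to 0.0182 CPM over all of them. Nrtn, the ligand of Gfra2 (NM_008738, chromosome 17), had 6 counts in Ly6D-Gfra2- replicate 2, at 0.267 CPM, and none in the other 12 libraries. Its limit in Ly6D+Gfra2+ was 0.105 CPM, where its receptor averaged 388.4 CPM. Artn had 4 counts in 1 Ly6D-Gfra2- library, and Pspn had 1, 13 and 11 counts in 1 library each of Ly6D+Gfra2+, Ly6D+Gfra2- and Ly6D-Gfra2-. The libraries hold sorted progenitors, so a ligand made by other marrow cells would not appear in them. Gdf15 and its receptor Gfral, a distant relative that also signals through Ret, had no count, and neither did Gas1, a GFR-alpha-like Ret partner.

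Some markers of cell types in which the family is best known were at 0 and others were not. Sox10, which marks Schwann cells and other glia, had no count in any library, and the neuronal markers Snap25, Stmn2 and Th had none either. Uchl1, also listed as a neuronal marker, was at up to 1.08 CPM in Ly6D+Gfra2+, up to 15.3 CPM in Ly6D+Gfra2- cells and up to 2.43 CPM in Ly6D-Gfra2- cells, and Tubb3 was at 3.36 CPM in 1 Ly6D+Gfra2- library. These genes do not cover the whole lists, and the part of such cells in the levels of the receptors was not tested.

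Summed markers of committed B cells were higher in the group with Gfra2. Their 7 genes summed to 412.7 to 606.8 CPM in Ly6D+Gfra2+, 16.3 to 109.9 CPM in Ly6D+Gfra2- cells and 7.61 to 48.8 CPM in Ly6D-Gfra2- cells. Ms4a1, the CD20 antigen of later B cells, had no count in any group, and 6 of the 7 had a count in each group. Cd79b overlapped between groups, at 28.1 to 127.8 CPM in Ly6D+Gfra2+, 8.01 to 105.7 CPM in Ly6D+Gfra2- and 6.54 to 48.5 CPM in Ly6D-Gfra2-. Median sums of plasmacytoid dendritic cell markers and of granulocyte and monocyte markers were lower in Ly6D+Gfra2+, with ranges that overlapped in part. Sums of NK and innate lymphoid, stromal and endothelial, glial, neuronal and erythroid markers overlapped between all groups. Progenitor marker sums were higher, at 6642 to 7825 CPM in Ly6D+Gfra2+, 5295 to 6302 CPM in Ly6D+Gfra2- and 4702 to 5614 CPM in Ly6D-Gfra2-. Not all of these markers followed the sum. Medians in Ly6D+Gfra2+, Ly6D+Gfra2- and Ly6D-Gfra2- were 1313, 188.2 and 69.5 CPM for Rag1 and 910.5, 681.0 and 415.8 CPM for Il7r. Flt3, Dntt, Ly6a and Kit overlapped between all groups. The median of Kit was highest in Ly6D-Gfra2-, at 238.6 CPM, against 172.3 CPM in Ly6D+Gfra2+. The 5 plasmacytoid dendritic cell markers summed to 535.1 to 806.5 CPM in Ly6D+Gfra2+, 1592 to 2036 CPM in Ly6D+Gfra2- cells and 765.4 to 1990 CPM in Ly6D-Gfra2- cells. The value of 1990 CPM was that of the library labelled Ly6D-Gfra2- replicate 3. Without it Ly6D-Gfra2- reached 1149 CPM, below all Ly6D+Gfra2- libraries. The 6 granulocyte and monocyte markers summed to 191.1 to 437.2 CPM in Ly6D+Gfra2+, 418.3 to 570.8 CPM in Ly6D+Gfra2- cells and 620.3 to 1325 CPM in Ly6D-Gfra2- cells. The value of 620.3 CPM was that of the same library, and without it the lowest of Ly6D-Gfra2- was 737.4 CPM. The part of these cells in the levels of Gfra2 and of the genes described next was not tested.

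Downstream, the cytoplasmic machinery that the receptors share with other pathways was expressed, and 1 of its genes was called in each comparison of Ly6D+Gfra2+ cells. Of 69 further genes listed by role, 68 were in the files and 54 passed the filter. Against Ly6D+Gfra2-, 1 of the 54 was called higher and 0 lower, against 0.409% of all genes called in either direction, and 10 had an unadjusted p under 0.05, beside 13.2% of all genes. Their median log2 fold change was 0.13, beside 0.03 over all genes. Against Ly6D-Gfra2-, 1 was called higher and 0 lower, against 1.39% of all genes, and 12 had an unadjusted p under 0.05, beside 15.4% of all genes. Their median was -0.03, beside 0.01 over all genes. Between the Gfra2- compartments 0 of the 54 were called in edgeR, DESeq2 or limma voom, and 6 had an unadjusted p under 0.05, beside 4.71% of all genes. The comparisons of Ly6D+Gfra2+ cells share those 3 libraries.

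**Figure D4:**
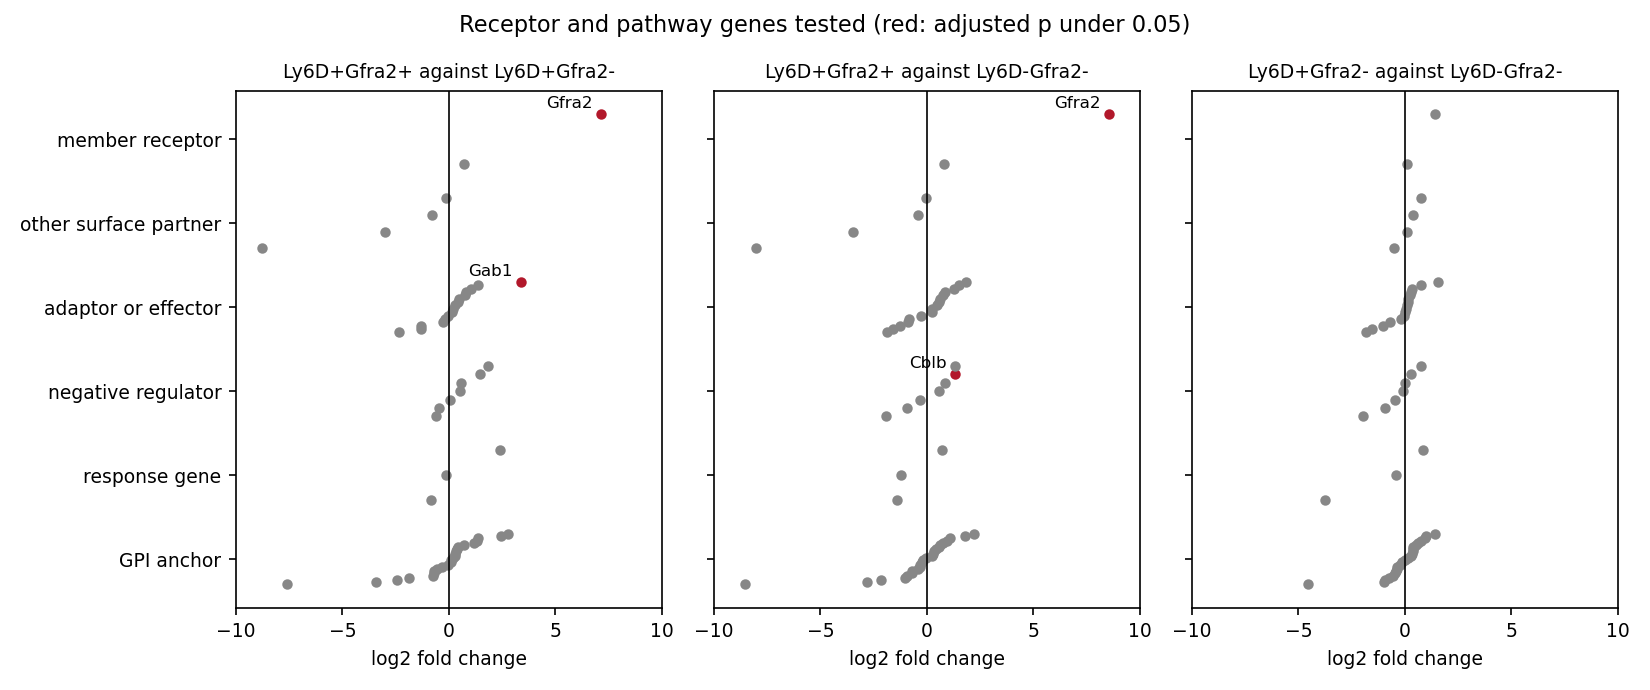
Log2 fold change of the 2 tested receptors and the 54 tested pathway genes, grouped by role, in the 3 comparisons. Each point is a gene and red points passed an adjusted p under 0.05 in edgeR. Gfra2, Gab1 and Cblb are the red points, Gab1 against Ly6D+Gfra2- and Cblb against Ly6D-Gfra2-. The points furthest left, St8sia2 and Pgap3, had no count in Ly6D+Gfra2+, so their fitted values are no measure of size.

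Among 16 tested adaptors and effectors, Gab1 rose in Ly6D+Gfra2+ against Ly6D+Gfra2-. Gab1 is a docking protein that links receptor tyrosine kinases to PI3K and SHP2. It was at 182.9, 108.9 and 106.7 CPM in Ly6D+Gfra2+ and at 8.24, 21.6, 7.37 and 15.3 CPM in Ly6D+Gfra2-. In Ly6D-Gfra2- replicates 1 to 6 it was at 15.7, 63.2, 27.6, 52.9, 47.5 and 20.2 CPM. Every Ly6D+Gfra2+ library was above every other library, where 4% of all genes lay above Ly6D+Gfra2- and 4.03% above Ly6D-Gfra2- without overlap. The log2 fold change against Ly6D+Gfra2- was 3.37 (SE 0.63, edgeR adjusted p = 0.0336). Against Ly6D-Gfra2- it was 1.83 (SE 0.54) and missed the threshold in edgeR at an adjusted p of 0.111, while DESeq2 gave 0.0184. Without the library labelled replicate 3 it was 1.80 (adjusted p = 0.149). Between the Gfra2- compartments it was -1.53 (adjusted p = 0.807).

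The call of Gab1 was lost with only the 2 groups in the fit (adjusted p = 0.357) and within prefix T (adjusted p = 0.095), at log2 fold changes of 3.55 and 3.54. It was lost, too, without any 1 of Ly6D+Gfra2+ replicate 4, replicates 5 and 6 of Ly6D+Gfra2- and replicates 2, 4, 5 and 6 of Ly6D-Gfra2-. Over the fits that left out 1 library, the fold change of Gab1 lay between 3.05 and 3.61 and the edgeR adjusted p between 0.025 and 0.126.

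The other adaptors had values in both directions. Plcg1, the phospholipase that Ret recruits, averaged 35.7 ± 21.1 CPM in Ly6D+Gfra2+, against 82 ± 18.6 CPM in Ly6D+Gfra2- (log2 fold change -1.31, edgeR adjusted p = 0.248). Gab2, a relative of Gab1, averaged 131.6 ± 131.0 CPM in Ly6D+Gfra2+, against 39.3 ± 17.1 CPM in Ly6D-Gfra2- (1.51, adjusted p = 0.244). Replicate 5 alone was high, at 282.9 CPM, against 57.3 and 54.6 CPM in the other Ly6D+Gfra2+ libraries, and without it the log2 fold change of Gab2 was 0.27. It was 1.60 when the library labelled Ly6D-Gfra2- replicate 3 was left out. Frs2, a docking protein of Ret and of FGF receptors, averaged 81.7 ± 26.6 CPM in Ly6D+Gfra2-, against 173.8 ± 83.2 CPM in Ly6D-Gfra2- (-1.03, adjusted p = 0.807), or -1.08 without that library. Sos1, the exchange factor that loads Ras, had a log2 fold change of 0.81 in Ly6D+Gfra2+ against Ly6D+Gfra2- (adjusted p = 0.38), which was 0.23 without Ly6D+Gfra2+ replicate 5. Ptk2, the focal adhesion kinase, had one of 1.55 in Ly6D+Gfra2- against Ly6D-Gfra2- (adjusted p = 0.999), which was 0.73 without Ly6D+Gfra2- replicate 1.

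Among 7 tested negative regulators, Cblb rose in Ly6D+Gfra2+ against Ly6D-Gfra2-. Cblb is a ubiquitin ligase that marks activated receptors and kinases for removal in lymphocytes. It was at 397.9, 546.2 and 312.0 CPM in Ly6D+Gfra2+, at 258.9, 244.3, 429.5 and 279.8 CPM in Ly6D+Gfra2-, and at 211.4, 207.5, 233.1, 169.5, 141.9 and 117.3 CPM in Ly6D-Gfra2-. All Ly6D+Gfra2+ and all Ly6D+Gfra2- libraries were above all Ly6D-Gfra2- libraries, and the Ly6D+ groups overlapped each other. Above Ly6D-Gfra2- without overlap lay 4.03% of all genes in Ly6D+Gfra2+. The log2 fold change was 1.31 (SE 0.29, edgeR adjusted p = 0.0367) in Ly6D+Gfra2+ against Ly6D-Gfra2-. It was 1.35 (adjusted p = 0.0387) without the library labelled replicate 3. In Ly6D+Gfra2- against Ly6D-Gfra2- it was 0.78 (SE 0.24, adjusted p = 0.807), a comparison in which 0.582% of all genes lay above and 0.951% below without overlap.

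The call of Cblb did not hold in every fit either. It was lost with library size as the only scaling (log2 fold change 1.03, adjusted p = 0.103) and in limma voom (1.18, adjusted p = 0.062). It was also lost without any 1 of Ly6D+Gfra2+ replicate 5, Ly6D+Gfra2- replicate 6 and Ly6D-Gfra2- replicates 1, 2, 4, 5 and 6, with adjusted p up to 0.135 over the fits that left out 1 library and fold changes from 1.08 to 1.49. Within prefix T the fold change of Cblb against Ly6D-Gfra2- was 1.54 (adjusted p = 0.0413).

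The remaining negative regulators included several feedback inhibitors of the MAP kinase pathway. Dusp6, a phosphatase of ERK, was at 241.8, 146.1 and 87.4 CPM in Ly6D+Gfra2+, at 25.1 to 74.3 CPM in Ly6D+Gfra2- cells and at 23.8 to 74.8 CPM in Ly6D-Gfra2- cells. All Ly6D+Gfra2+ libraries were above all others, as for 4% of all genes against Ly6D+Gfra2- and 4.03% against Ly6D-Gfra2-, but its log2 fold changes of 1.45 against Ly6D+Gfra2- (edgeR adjusted p = 0.214) and 1.34 against Ly6D-Gfra2- (adjusted p = 0.167) did not pass. The value of Dusp6 against Ly6D-Gfra2- was 1.39 with the library labelled replicate 3 left out. Spry2, a sprouty inhibitor, averaged 39.7 ± 29.4 CPM in Ly6D+Gfra2+, against 12.9 ± 5.22 CPM in Ly6D+Gfra2- (1.81, adjusted p = 0.36; 1.19 without Ly6D+Gfra2+ replicate 5). Spry1, which restrains Ret signalling in the mouse kidney, averaged 10.3 ± 13.2 CPM in Ly6D+Gfra2-, against 18.7 ± 19.4 CPM in Ly6D-Gfra2- (-1.98, adjusted p = 0.999). Cbl, a relative of Cblb, averaged 210.3 ± 61 CPM in Ly6D+Gfra2+, against 343.5 ± 63.6 CPM in Ly6D+Gfra2- (-0.59, adjusted p = 0.319). Cd2ap, an adaptor of Cbl proteins, averaged 179.0 ± 11.1 CPM in Ly6D+Gfra2+, against 120.6 ± 28.1 CPM in Ly6D-Gfra2- (0.59, adjusted p = 0.343).

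Surface partners of the ligands and coreceptors gave 0 called genes of 4 tested in each comparison by edgeR, while DESeq2 called Sdc3 and St8sia2 in both comparisons of Ly6D+Gfra2+ cells. DESeq2 called 5.34% of the 13100 genes with an adjusted p against Ly6D+Gfra2- and 7.18% against Ly6D-Gfra2-. An unadjusted p under 0.05 was reached by 1 of the 4 against Ly6D+Gfra2-, by 2 against Ly6D-Gfra2- and by 0 between the Gfra2- compartments, beside 13.2%, 15.4% and 4.71% of all genes. Sdc3, a heparan sulfate proteoglycan that binds GDNF family ligands, was at 2.17, 0 and 5.09 CPM in Ly6D+Gfra2+ and at 8.63, 16.1, 35.6 and 19.1 CPM in Ly6D+Gfra2-. In Ly6D-Gfra2- it was at 11.1 to 54.9 CPM. Each Ly6D+Gfra2+ library was below all libraries of the other groups, in comparisons where 5.71% and 6.19% of all genes lay below without overlap. The log2 fold change of Sdc3 was -2.99 against Ly6D+Gfra2- (SE 1.08, edgeR adjusted p = 0.243) and -3.49 against Ly6D-Gfra2- (SE 1.13, adjusted p = 0.146), while DESeq2 gave adjusted p of 0.036 and 0.0033. Without the library labelled Ly6D-Gfra2- replicate 3, Sdc3 had -3.46 against Ly6D-Gfra2- in edgeR. Sorl1, a sorting receptor that takes up GDNF with Gfra1, averaged 28.9 ± 14.6 CPM in Ly6D+Gfra2+, 49.2 ± 22 CPM in Ly6D+Gfra2- cells and 38.1 ± 11 CPM in Ly6D-Gfra2- cells.

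**Figure D5:**
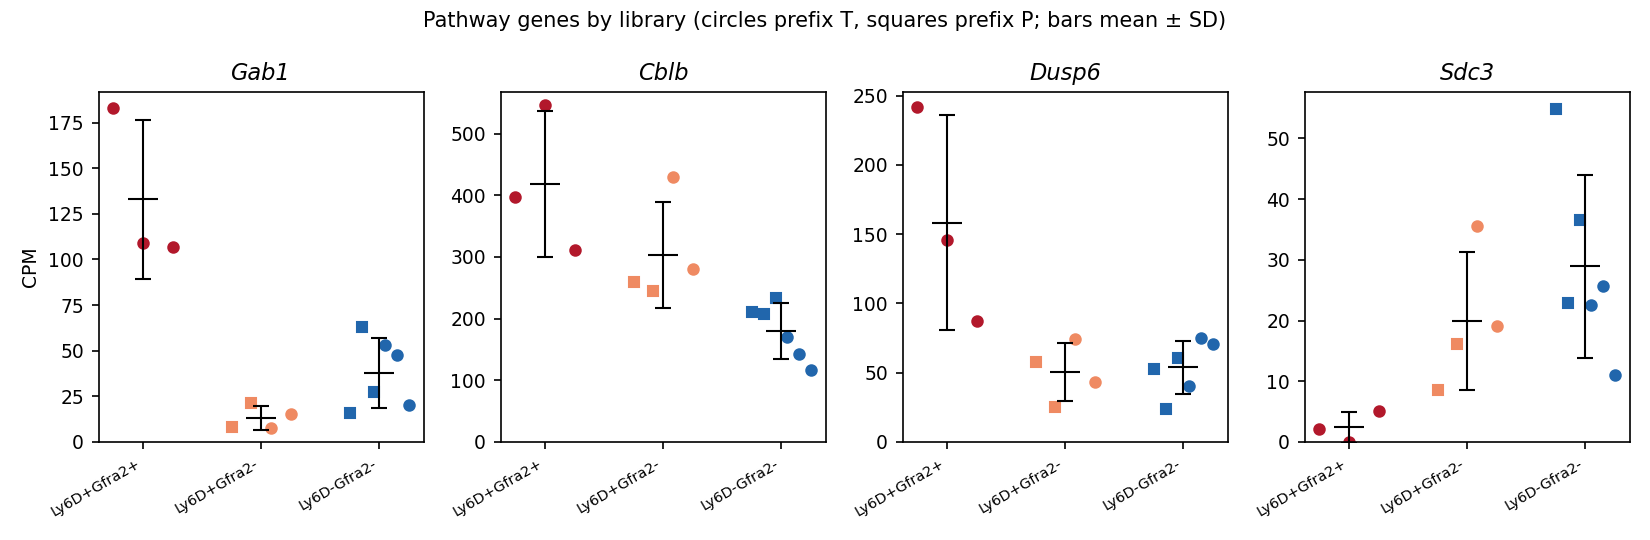
Levels of Gab1, Cblb, Dusp6 and Sdc3 in CPM in each library on linear axes that start at 0. Circles are prefix T, squares are prefix P, and bars are the mean ± SD of a group. The Ly6D+Gfra2+ libraries are the 3 highest of all 13 for Gab1 (106.7 to 182.9) and Dusp6 (87.4 to 241.8) and the 3 lowest for Sdc3 (0 to 5.09).

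The enzymes that add polysialic acid to Ncam1 were unevenly expressed. St8sia4 was at 203.7 ± 37.8 CPM in Ly6D+Gfra2+, 244.4 ± 30.4 CPM in Ly6D+Gfra2- cells and 228.4 ± 58.6 CPM in Ly6D-Gfra2- cells, although its main substrate Ncam1 had 0 counts in Ly6D+Gfra2+. St8sia2 had 0 counts in Ly6D+Gfra2+, 283, 55, 0 and 0 counts in Ly6D+Gfra2- replicates 1, 2, 5 and 6, and 4 to 74 counts in Ly6D-Gfra2-. Against 3 counts over the group, St8sia2 was at least 55.8-fold lower in Ly6D+Gfra2+ than in Ly6D+Gfra2- and at least 20.4-fold lower than in Ly6D-Gfra2-, in sums over libraries. The first bound rests most on Ly6D+Gfra2- replicate 1, without which it was 13.2-fold. The second had counts in all 6 Ly6D-Gfra2- libraries behind it and was lowest without replicate 6, at 12.7-fold. The second was 22.3-fold when the library labelled Ly6D-Gfra2- replicate 3 was left out. The adjusted p of St8sia2 in edgeR was 0.391 and 0.22. Both Ly6D+Gfra2- libraries of prefix T were at 0 too, so within prefix T neither Ly6D+Gfra2+ nor Ly6D+Gfra2- had a count of it. Ncam2, a relative of Ncam1, had no count in any library.

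Genes known to respond to GDNF in mouse spermatogonial stem cells or kidney were called in no comparison by edgeR, DESeq2 or limma voom, with 3 of 5 tested and 1 unadjusted p under 0.05, that of Etv5 between the Gfra2- compartments. Etv5 averaged 33.5 ± 12.8 CPM in Ly6D+Gfra2+, 49 ± 21.6 CPM in Ly6D+Gfra2- cells and 27 ± 10.5 CPM in Ly6D-Gfra2- cells. Its log2 fold change was -0.14 in Ly6D+Gfra2+ against Ly6D+Gfra2- (edgeR adjusted p = 0.941) and 0.73 against Ly6D-Gfra2- (adjusted p = 0.514), or 0.74 without the library labelled replicate 3. Etv4 averaged 0.572 CPM in Ly6D+Gfra2+, 0.0253 CPM in Ly6D+Gfra2- cells and 0.933 CPM in Ly6D-Gfra2- cells, and Bcl6b averaged 0.833 CPM in Ly6D+Gfra2+, 1.23 CPM in Ly6D+Gfra2- cells and 1.65 CPM in Ly6D-Gfra2- cells. Lhx1 and Wnt11, further targets in these tissues, had no count in any library.

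GFR-alpha receptors reach the surface on a GPI anchor, and of 24 tested genes that make or remodel that anchor 0 were called in any comparison by edgeR with all libraries and the filter. Without the filter, or without Ly6D+Gfra2+ replicate 6, edgeR called Pigb in both comparisons of Ly6D+Gfra2+ cells. An unadjusted p under 0.05 was reached by 4 of the 24 against Ly6D+Gfra2-, by 2 against Ly6D-Gfra2- and by 2 between the Gfra2- compartments, beside 13.2%, 15.4% and 4.71% of all genes. DESeq2 called Pgap2, Pgap3, Pigb and Pigv against Ly6D+Gfra2-, where it called 5.34% of all genes, and Pgap3 against Ly6D-Gfra2-, where it called 7.18%. The median log2 fold change of the 24 was 0.14 in Ly6D+Gfra2+ against Ly6D+Gfra2-, -0.10 against Ly6D-Gfra2- and 0.09 between the Gfra2- compartments. Pgap3, which remodels the lipid of the anchor, had 0 counts in Ly6D+Gfra2+, 0.304 to 11.9 CPM in Ly6D+Gfra2- cells and 0.578 to 11.8 CPM in Ly6D-Gfra2- cells. In sums over libraries, Pgap3 was at least 41.3-fold lower in Ly6D+Gfra2+ than in Ly6D+Gfra2- and at least 37.8-fold lower than in Ly6D-Gfra2- (edgeR adjusted p of 0.235 and 0.111). Of its 250 counts in Ly6D+Gfra2-, 234 were in replicate 2, and without that library the first bound was 4.07-fold. The second bound was 44.4-fold with the library labelled Ly6D-Gfra2- replicate 3 left out. Pigb, a mannosyltransferase of the pathway, had 55.6, 617.1 and 18.2 CPM in Ly6D+Gfra2+, so its log2 fold change of 2.77 against Ly6D+Gfra2- (adjusted p = 0.174) became 0.13 without replicate 5, which alone was high.

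The other anchor genes named by smallest p were Pgap2, Pgap1, Dpm2 and Pigo. Pgap2, which also remodels the anchor, averaged 53 ± 19.4 CPM in Ly6D+Gfra2+, against 26.7 ± 8.45 CPM in Ly6D+Gfra2- (log2 fold change 1.31, edgeR adjusted p = 0.239). Dpm2, a part of the mannose donor enzyme, averaged 40.5 ± 10.2 CPM in Ly6D+Gfra2-, against 20.8 ± 6.01 CPM in Ly6D-Gfra2- (adjusted p = 0.999). Pgap1, an inositol deacylase, averaged 0.0932 CPM in Ly6D+Gfra2-, against 2.01 CPM in Ly6D-Gfra2- (adjusted p = 0.999). Pigo, which adds the ethanolamine phosphate that links the protein, averaged 76.9 ± 125.2 CPM in Ly6D+Gfra2+, against 32.8 ± 21 CPM in Ly6D-Gfra2- (1.78, adjusted p = 0.418), and its direction turned in Ly6D+Gfra2+ without replicate 5.

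The genes most like Gfra2 across the 13 libraries were found among the 10411 tested genes whose mean reached 5 CPM, by Pearson correlation of log2(CPM + 0.5). They were Pax5 (0.91), the transcription factor that commits cells to the B lineage, Cd79a (0.90), a signalling chain of the B-cell receptor, Gpat3 (0.89), an enzyme of lipid synthesis, Slc25a1 (0.89), the mitochondrial citrate carrier, and Dlg2 (0.89), a scaffold protein. Pax5 averaged 81.7 CPM in Ly6D+Gfra2+, 0.327 CPM in Ly6D+Gfra2- cells and 1.16 CPM in Ly6D-Gfra2- cells. The genes most like Gfra1 were Pde7a (0.89), Mavs (0.89), Prob1 (0.88), Rhoh (0.87) and Ulbp1 (0.87), of which Pde7a averaged 156.4 CPM in Ly6D+Gfra2+, 157.8 CPM in Ly6D+Gfra2- cells and 157.2 CPM in Ly6D-Gfra2- cells. With Spearman correlation 0 of the 5 were shared for either receptor. With a pseudocount of 2, 2 of the 5 were shared for Gfra2 and 4 for Gfra1. The libraries share groups and prefixes, and the order of such near-equal correlations has no test.

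Around Gfra2 on chromosome 14, the RefSeq table lists 31 genes within 500 kb. Of these, 18 were in the files, 8 passed the filter and 6 had no count in any library. In edgeR 0 of the 8 were called in any comparison, and the smallest adjusted p was 0.193 in Ly6D+Gfra2+ against Ly6D+Gfra2-, 0.249 against Ly6D-Gfra2- and 0.999 between the Gfra2- compartments. The nearest tested neighbour was Dok2, an adaptor that restrains kinase signalling in blood cells, 112 kb before Gfra2, at 74.5 CPM in Ly6D+Gfra2+, 37.8 CPM in Ly6D+Gfra2- cells and 31.2 CPM in Ly6D-Gfra2- cells. Its log2 fold change was 1.02 in Ly6D+Gfra2+ against Ly6D+Gfra2- (adjusted p = 0.5), beside 7.14 for Gfra2. Xpo7, a nuclear export receptor 119 kb before it, averaged 347.3 CPM in Ly6D+Gfra2+, 186.0 CPM in Ly6D+Gfra2- cells and 249.1 CPM in Ly6D-Gfra2- cells, with a log2 fold change of 0.83 in Ly6D+Gfra2+ against Ly6D+Gfra2- (adjusted p = 0.193).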

How the data were processed

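Each library has 1 deposited file of whole-number counts by RefSeq identifier, raw per the file headers. The submitters' processing notes name FastQC, HISAT, TopHat, HOMER, DESeq and mm10, with no roles or versions. Libraries were made with Nugen Ovation kits, per the labels' protocols. Strand, annotation version and treatment of multiply mapped reads are not given in the sources used here. The 24072 identifiers were named from the RefSeq gene table of GRCm38.p6 (23815) and GENCODE M21 (144); 113 had no name.

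Counts of all 13 libraries were fitted with edgeR 4.0.16 (R 4.3.3) with terms for group and prefix, TMM normalization and filterByExpr (minimum count 10, minimum total 15), which left 12722 genes. Levels are TMM-scaled CPM. Alternatives were DESeq2 1.42.0, limma 3.58.1 voom, RLE or library size alone, no filter, at least 5 CPM in 3 libraries, no prefix term, a replicate block, fewer groups, 1 prefix, and each library left out. In simulated data, genes changed 4-fold were recovered at 30% (Ly6D+Gfra2+ against Ly6D+Gfra2-), 40% (against Ly6D-Gfra2-) and 40% (Ly6D+Gfra2- against Ly6D-Gfra2-), and genes changed 16-fold at 65%, 76% and 75%.

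The members and gene lists were chosen with earlier results of these data known. Named genes were the members, called pathway genes, the 3 tested genes of smallest p per role and comparison, Ly6d, the 5 genes most like each tested member, and RefSeq genes within 500 kb of Gfra2; of the last, those nearest are given values. Some marker genes and a sequence comparison of the receptors are not reported here.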

Additional observations from a re-analysis of the deposited data

Results flagged for a closer look

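In 14 of 60 sets of 4 or 6 libraries 1 library stood far from the rest of its group. A chance rate of about 1 in 20 does not hold for low counts with many zeros, so no excess is read from this number. The list gives each of the 14 in CPM, with the range of the other libraries of its group. Among the receptors and their partners, Gfra4 was at 4.47 in Ly6D-Gfra2- replicate 1, against 0 to 1.07 in the others, Nrtn at 0.267 in Ly6D-Gfra2- replicate 2, against 0, and Ncam1 at 0.152 in Ly6D+Gfra2- replicate 2, against 0. The sort marker Ly6d was at 213.0 in the library labelled Ly6D-Gfra2- replicate 3, against 0.622 to 8.29.

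Among Ly6D+Gfra2- libraries, St8sia2 was at 18.4 in replicate 1 (others up to 2.79), Etv5 at 81.4 in replicate 2 (others 36.8 to 38.9), Pgap3 at 11.9 in replicate 2 (others 0.304 to 0.559), Pgap1 at 0.373 in replicate 5 (others 0) and Etv4 at 0.101 in replicate 6 (others 0). Among Ly6D-Gfra2- libraries, Pgap2 was at 100.8 in replicate 1 (others 36.9 to 60.5), Pigo at 72.8 in replicate 2 (others 10.2 to 30.9) and Bcl6b at 4.16 in replicate 4 (others 0.389 to 1.49). In Ly6D-Gfra2- replicate 6, Frs2 was at 333.1 (others 102.1 to 185.2) and St8sia2 at 9.59 (others 0.398 to 2.15). Several of these rest on 1 to 6 counts.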

How the results depend on the processing

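Gfra2 stayed higher in Ly6D+Gfra2+ in every fit run, and its call against Ly6D-Gfra2- held in all of them. Against Ly6D+Gfra2- the call was lost with only the 2 groups (log2 fold change 7.33) and only prefix T (7.32), and leaving out 1 library gave 6.54 to 7.95. Genes called in that comparison numbered 52, against 700 with DESeq2, 25 with limma voom, 164 with no filter, 103 with no prefix term, 8 with only the 2 groups, 9 within prefix T and 12 to 184 without 1 library. Pathway genes called, members included, numbered 2 (Gab1 and Gfra2), against 8 with DESeq2, 0 with only the 2 groups, 0 within prefix T and 0 to 3 without 1 library. Against Ly6D-Gfra2-, 177 genes were called, against 940 with DESeq2, 109 with voom, 111 with library size alone, 318 with no filter, 72 with only the 2 groups, 62 within prefix T and 49 to 372 without 1 library. Pathway genes called numbered 2 (Cblb and Gfra2), against 7 with DESeq2, 1 with voom, 1 with library size alone and 1 to 3 without 1 library. For Ly6D+Gfra2- against Ly6D-Gfra2-, 0 genes were called, against 54 with DESeq2, 1 with voom, 9 with no filter, 1 within prefix T and 0 to 16 without 1 library, the highest without the library labelled Ly6D-Gfra2- replicate 3, and the interaction with prefix was called for 0 genes, or 0 to 672 without 1 library, the highest without Ly6D+Gfra2- replicate 2. The causes were not tested.

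Whether same-numbered libraries came from the same animal or sort is not stated. Library names of prefix T carry a tag that matches the replicate number. Same-numbered libraries had correlations of their deviations from the group mean between -0.0439 and 0.139. These values cannot decide whether the samples are paired, since different-numbered libraries were not compared. With a replicate block in place of the prefix, 25 genes were called in Ly6D+Gfra2+ against Ly6D+Gfra2-, 92 against Ly6D-Gfra2-, with 1 pathway gene left there (Gfra2), and 8 between the Gfra2- compartments; Gfra2 had 8.73 and 10.15, Gab1 3.16 and Cblb 1.32 (adjusted p = 0.0544).

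Directions turned only for values that had not passed in edgeR with all libraries and the filter. Pigb against Ly6D-Gfra2- was called without the filter or without Ly6D+Gfra2+ replicate 6, and its direction turned without Ly6D+Gfra2+ replicate 5. Between the Gfra2- compartments, Gfra1 was -0.59 within prefix P and -0.15 to 0.50 without 1 library, Gfra2 -0.09 to 2.48, Bcl6b -1.59 to 0.11, St8sia4 -0.15 within prefix P and -0.02 to 0.21, and Sdc3 0.47 within prefix T. In Ly6D+Gfra2+ against Ly6D+Gfra2-, Gfra1 ranged from -0.08 to 1.24 without 1 library, Bcl6b from -3.59 to 0.49, Etv4 from -3.59 to 2.92 (-0.48 with the replicate block), Etv5 from -0.51 to 0.02 and Ly6d from -0.80 to 0.63, and St8sia2 was 0.00 within prefix T. Against Ly6D-Gfra2-, Pigb ranged from -0.41 to 2.78 and Pigo from -2.27 to 2.34 (-1.13 with voom). Depth limits the members at 0 to statements under 0.105 CPM in Ly6D+Gfra2+.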
